A study of Rattus norvegicus with 27 samples.

Results

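The genes described here are 7 genes known as markers of the choroid plexus: Ttr, Folr1, Kl, Clic6, Otx2, Aqp1 and Slc4a5. They were found by their symbol in the table of 17321 genes, which holds all 7. The table gives read counts from punches of the cerebellar interpositus nucleus of 27 Long-Evans rats aged 70 days. In the limited bedding (LB) groups, 7 females and 8 males had been raised from postnatal day 2 to 9 with a wire mesh floor and little nesting material. In the no treatment (NT) groups, 5 females and 7 males had been raised in standard cages. The labels name no transgene or mutation for any group, and pups of all groups had been cross-fostered and weaned into cages of the same sex and treatment. Animals are named here by their sample title. No source used here says which animals shared a litter, so p-values measure the spread between these animals.

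The choroid plexus is a folded sheet of secretory epithelium over a core of vessels and lies inside the brain ventricles, where it makes cerebrospinal fluid. A part of it lies in the fourth ventricle, beneath the cerebellum. It is not a part of the cerebellar nuclei, and its epithelium is known for very high Ttr. In bulk tissue, a lower level from fewer cells of a type cannot be told apart from less RNA in each cell. The question for these genes was which animals carried them, how steeply they rose from animal to animal, and whether that went with sex or treatment.

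The members were set beside 28 further choroid plexus genes, of which the table holds 27. Members and lists were chosen with earlier results of these data known, so this is no independent check of the label. NT male 4113 had the highest level of all 27 animals in 6 of the 7 members, all but Otx2, and in 20 of these 27 further genes. Sex labels fitted the animals, as the Y-linked Eif2s3y had at most 3 counts in any female and at least 516 in any male. Total counts per animal ranged from 11836684 to 24169170 with a median of 16034036. A gene was taken as detected from 3 counts, which is between 0.124 and 0.253 counts per 1000000 (CPM) depending on the animal. This floor covers counting error only. Levels are given as CPM with library sizes scaled by the trimmed mean of M values (TMM), and per kilobase of exon where genes are compared with each other. NT male 4113 stood apart in the members other than Otx2, while NT male 6112 exceeded the other 25 animals in Folr1 and Slc4a5 alone. LB female 5022 and NT male 6112 held the highest level of 22.3% and 15.3% of the 12107 genes tested. NT male 4113 held that of 1.19%. Results that rest on NT male 4113 are given with and without it.

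Ttr encodes transthyretin, the carrier of thyroid hormone and retinol in cerebrospinal fluid. It lies on the rn6 genome at chr18:15532964-15540177 on the minus strand and was counted over 700 bases of exon. Every animal carried it. NT male 4113 had 95166 Ttr counts, or 6339.9 CPM. These made up 0.659% of all its counts and placed Ttr at rank 4 among all genes of that animal. The animals next in order were LB female 5022 with 241.2 CPM, LB male 122 with 168 CPM, NT male 3113 with 107 CPM and NT male 6112 with 98.1 CPM. The lowest was NT male 6111, with 26 counts or 1.95 CPM. The first 5 animals in the order thus came from 3 of the 4 groups, and the highest and lowest animals were both NT males.

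For Ttr the highest animal stood 26.3 times above the second, 376 times above the median animal (16.9 CPM) and 3243 times above the lowest. The single highest animal held 86% of the Ttr CPM summed over all animals, and the highest 5 held 94.3%. Without NT male 4113 the remaining animals still spread widely, with a standard deviation (SD) of 1.71 on the log2(CPM + 0.5) scale against 2.32 with it. The median SD over the 12107 genes tested was 0.36. The biological coefficient of variation that edgeR assigned to Ttr was 1.40, above that of 99.8% of genes tested, whose median was 0.24.

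The promoters of Ttr and Aqp1 are shown because Ttr rose most steeply and because each holds 1 of the searched motifs. RefSeq start sites on the GRCr8 genome gave promoters of 300 bases, 250 before to 50 after the start, for 4 of the 7 members: Ttr, Kl, Aqp1 and Slc4a5. Those of Folr1, Clic6 and Otx2 were not used here. Both strands were searched for TAATCC, a core that OTX homeodomain proteins are known to prefer, for the related TAATCT, and for the TATA box letters TATAAA, and capitals mark matches.
Ttr (chr18:12218508-12218807, plus strand): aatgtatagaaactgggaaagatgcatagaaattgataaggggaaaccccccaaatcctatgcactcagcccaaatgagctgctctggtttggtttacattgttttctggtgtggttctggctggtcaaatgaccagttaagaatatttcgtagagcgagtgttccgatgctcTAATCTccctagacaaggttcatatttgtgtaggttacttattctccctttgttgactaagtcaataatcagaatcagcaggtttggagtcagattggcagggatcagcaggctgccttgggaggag
Aqp1 (chr4:85812534-85812833, plus strand): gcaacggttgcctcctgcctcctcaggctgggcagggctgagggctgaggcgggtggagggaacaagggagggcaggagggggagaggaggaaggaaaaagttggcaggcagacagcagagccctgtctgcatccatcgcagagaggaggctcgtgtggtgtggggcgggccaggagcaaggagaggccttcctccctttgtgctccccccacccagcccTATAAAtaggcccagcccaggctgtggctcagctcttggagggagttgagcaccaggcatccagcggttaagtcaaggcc
TAATCT was present in the Ttr promoter, on the coding strand, and in 8.7% of all 33469 promoters. TATAAA was present in the Aqp1 promoter and in 14.2% of all promoters. TAATCC was in none of the 4 and in 7.17% of all promoters. The promoters of Kl and Slc4a5 held none of the 3 motifs.

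Folr1 encodes folate receptor alpha, through which the choroid plexus moves folate into cerebrospinal fluid (rn6 chr1:166934457-166945845, minus strand, 1279 bases of exon). It was the member carried by the fewest animals apart from Otx2. Its count reached 3 in 17 of the 27 animals and was 0 in 4. NT male 4113 had 474 counts (31.6 CPM) and NT male 6112 had 104 counts (5.82 CPM). The other 25 animals had at most 25 counts (1.39 CPM), reached in NT male 3113, with LB female 5022 close behind at 24 counts. Their median was 0.21 CPM. NT male 4113 stood 5.42 times above NT male 6112 and 141 times above the median animal. The single highest animal held 69.3% of the summed CPM.

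Kl encodes klotho, a membrane protein that acts as a co-receptor for the hormone FGF23 (rn6 chr12:942974-987206, plus strand, 3518 bases of exon). All 27 animals carried it with at least 15 counts. NT male 4113 had 519 counts (34.6 CPM). LB female 8021 followed with 4.93 CPM and NT male 6112 with 4.82 CPM, so the gap from the first to the second animal was 7.01 times. The median animal had 2.16 CPM and the lowest, LB female 8024, had 0.86 CPM. Apart from NT male 4113, Kl stayed within a far narrower range than Ttr.

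Aqp1 encodes the water channel aquaporin 1, which lies in the membrane that faces the ventricle (rn6 chr4:85551503-85563683, plus strand, 2624 bases of exon). NT male 4113 had 387 counts (25.8 CPM), while no other animal had more than 46. The second animal was NT female 1011 with 2.47 CPM, which put NT male 4113 at 10.5 times the second and 27.1 times the median of 0.95 CPM. NT male 6112, which was second for Folr1 and Slc4a5, had 17 Aqp1 counts and sat at the median. Slc4a5 encodes a sodium bicarbonate cotransporter of the same membrane (rn6 chr4:114918488-115002290, plus strand, 3605 bases of exon). It reached 252 counts (16.8 CPM) in NT male 4113, 50 counts (2.80 CPM) in NT male 6112 and 28 counts (2.43 CPM) in NT male 3111, around a median of 0.77 CPM. NT male 4113 stood 6.00 times above the second animal and 21.8 times above the median.

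Clic6 encodes a chloride intracellular channel protein of secretory epithelia (rn6 chr11:32655653-32698004, plus strand, 2226 bases of exon). It was the member with the flattest profile. Every animal had at least 58 counts. NT male 4113 had 733 counts (48.8 CPM), 2.88 times the second animal, LB female 8021 with 17 CPM, and 4.22 times the median of 11.6 CPM. The highest animal held 14.3% of the summed CPM. NT male 6112 had 12.1 CPM, close to the median. Clic6 was therefore present well above the floor in every punch.

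Otx2 encodes a homeodomain transcription factor needed to form and keep the choroid plexus epithelium (rn6 chr15:25500995-25526281, minus strand, 4678 bases of exon). It was not detected in any animal at the floor of 3 counts. It was at 0 in 23 animals, the highest count was 2, in LB male 7121, and NT male 4113 had 1 count. Otx2 did not pass the filter on low counts and was tested in no comparison. The other 6 members passed it.

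Per kilobase of exon, the order of levels in NT male 4113 was Ttr (9057), Folr1 (24.7), Clic6 (21.9), Kl (9.83), Aqp1 (9.83) and Slc4a5 (4.66), in CPM per kilobase. In the median animal the order was Ttr (24.1), Clic6 (5.20), Kl (0.62), Aqp1 (0.36), Slc4a5 (0.21) and Folr1 (0.18). Folr1 was thus second in NT male 4113 and last of these 6 in the median animal. Counting the members with at least 3 counts, 17 animals carried 6 and 10 animals carried 5. No animal carried fewer than 5 or all 7. What set NT male 4113 apart was therefore the level and not which members were present.

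**Figure D1:**
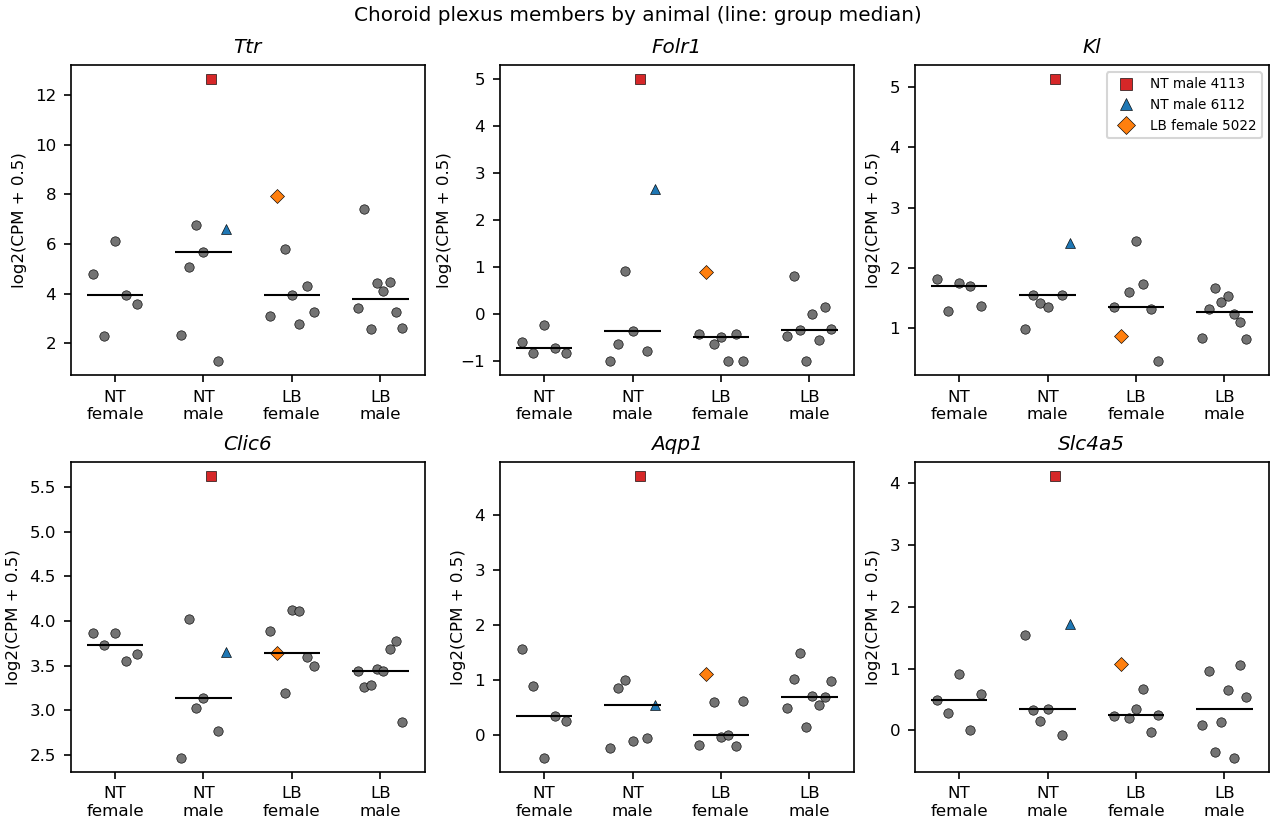
Level of each member that passed the filter, as log2(CPM + 0.5), in every animal of the 4 groups, with the group median as a line. NT male 4113 (red square) is the highest of 27 animals in all 6 panels, NT male 6112 (blue triangle) is second for Folr1 and Slc4a5, and LB female 5022 (orange diamond) is second for Ttr.

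**Figure D2:**
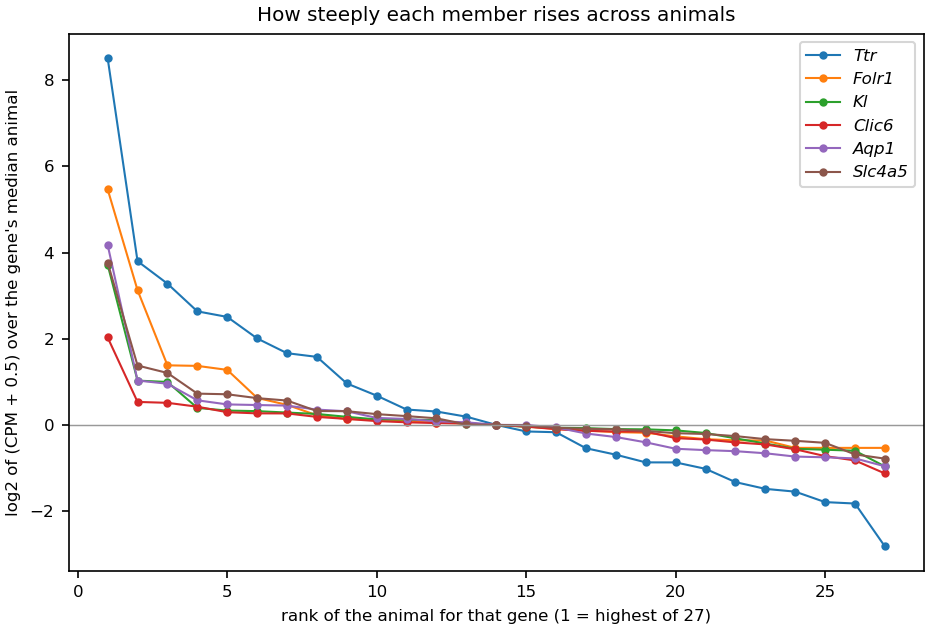
Animals ranked from highest to lowest for each member (x axis) against the log2 of CPM + 0.5 over that gene's median animal (y axis). All 6 curves drop sharply after the first animal, Ttr goes on falling across all ranks, and Clic6 is the flattest at the top.

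Across the genes tested, the highest animal stood a median of 1.10 times above the second and 1.63 times above the median animal. The 6 members thus lay above most genes tested on both scales. Even Clic6, the flattest, had a wider gap between first and second animal than 99.3% of genes tested. Its highest animal stood further above the median animal than in 94.1% of them. In 36 of the 12107 genes the first animal reached 5 times the second or more, and in 15 of these 36 it was NT male 4113 and in 18 it was NT male 6112. The members Ttr, Folr1, Kl, Aqp1 and Slc4a5 are 5 of those 15. With library sizes alone, the height of Ttr over its median animal was 393 times and that of Folr1 143 times.

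The members did not keep 1 ratio to Ttr from animal to animal. In NT male 4113 there were 4.98 Folr1 counts for every 1000 Ttr counts, with an exact 95% interval of 4.54 to 5.45. LB female 5022, second for Ttr, had 5.68 (interval 3.64 to 8.47), which overlapped that of NT male 4113. NT male 6112 had 59.4 (interval 48.2 to 72.4), far above both. At the ratio of NT male 4113, its 1752 Ttr counts would go with 8.73 Folr1 counts, where 104 were found. For Folr1, the Poisson interval of the count held the value at the ratio of NT male 4113 in 18 of the other 26 animals, and 8 animals lay above it.

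Kl, Clic6, Aqp1 and Slc4a5 were higher beside Ttr in nearly every other animal. There were 5.45 Kl counts per 1000 Ttr counts in NT male 4113 and a median of 118 in the other 26 animals. Kl lay within its interval of the NT male 4113 ratio in 1 animal, LB female 5022, and above it in 25. Aqp1 did so in 2 animals and lay above in 24. Clic6 and Slc4a5 lay above the ratio in all 26. NT male 4113 was therefore the animal in which Ttr outweighed Clic6 and Slc4a5 most. These intervals cover counting error only.

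**Figure D3:**
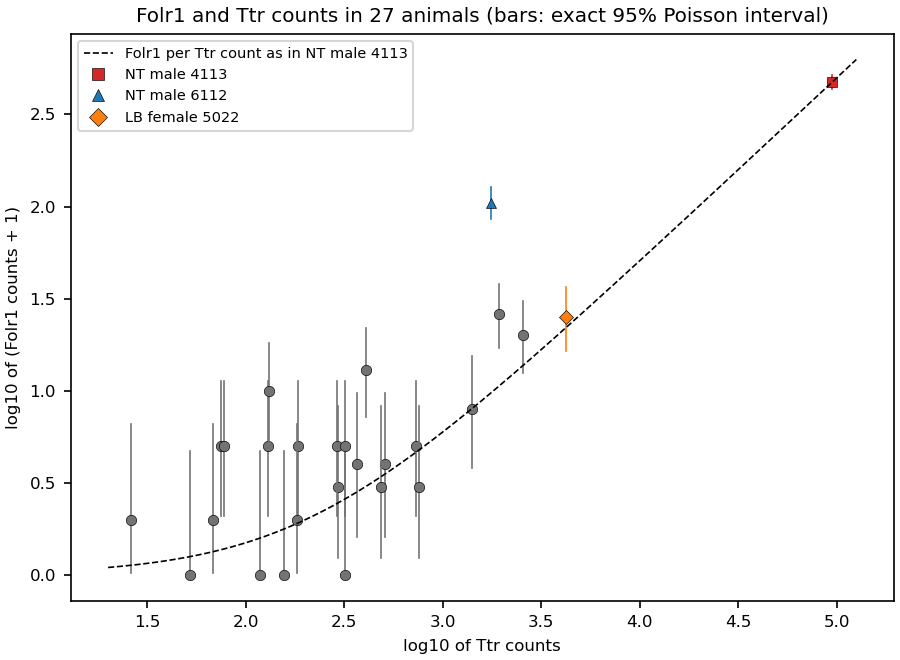
Folr1 counts (log10 of count + 1) against Ttr counts (log10) in 27 animals, with exact 95% Poisson intervals as bars and a dashed line at the Folr1 per Ttr ratio of NT male 4113. LB female 5022 lies on the line, while NT male 6112 with 104 Folr1 counts lies far above it.

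The levels of the 5 other tested members were set against Ttr on the log2(CPM + 0.5) scale over all 27 animals, with permutation p-values adjusted over 5 relations. Folr1 followed Ttr most closely, with Pearson's r = 0.84 (p = 2e-05, adjusted p = 1e-04) and Spearman's rho = 0.57 (p = 0.0023, adjusted p = 0.0115). Without NT male 4113 and LB female 5022, the 2 animals farthest from the Ttr median, r was 0.61. For Slc4a5, r was 0.69 (permutation p = 0.0023, adjusted p = 0.0056), and for Aqp1 0.66 (p = 0.0054, adjusted p = 0.0091). For Kl, r was 0.66 (permutation p = 0.0074, adjusted p = 0.0093), and for Clic6 0.56 (p = 0.0094, adjusted p = 0.0094). Without the same 2 animals these 4 values fell to 0.24, 0.13, 0.33 and 0.13 in that order. Without NT male 4113 alone they were 0.31, 0.22, 0.18 and 0.14, so these 4 relations rested on that animal, and r for Folr1 was 0.66. Spearman's rho was between 0.19 and 0.31 for these 4 genes, with adjusted permutation p-values from 0.172 to 0.350.

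Within groups of at least 6 animals, the r of Folr1 with Ttr was 0.91 in NT males, 0.85 in LB females and 0.55 in LB males. For Kl the values were 0.86, -0.21 and 0.20, and for Clic6 0.89, -0.47 and 0.08. For Aqp1 they were 0.90, 0.76 and -0.15, and for Slc4a5 0.75, 0.53 and 0.33. The relation was high for all 5 genes in NT males, the group that holds NT male 4113, and it changed sign between groups for Kl, Clic6 and Aqp1. NT females numbered 5 and were too few for this value.

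Ttr and Folr1 passed the test between NT males and NT females, and Folr1 also between males and females over all animals. Ttr in the 5 NT females was 27.3, 4.39, 69.2, 14.9 and 11.4 CPM in animals 1011, 1013, 2011, 2012 and 2013. In the 7 NT males it ranged from 1.95 through a median of 51.3 to 6339.9 CPM. The groups overlapped, with 3 of 7 males above every female and 1 below every female. The mean was 948 ± 2378 CPM (SD, n = 7) in NT males, against 25.5 ± 25.8 CPM (SD, n = 5) in NT females. With animal 4113 left out, the male mean was 49.4 ± 45.3 CPM (SD, n = 6).

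Folr1 in the NT females was between 0.063 and 0.34 CPM with a median of 0.10, which is 1 to 7 counts. In NT males it ranged from 0 through a median of 0.28 to 31.6 CPM. Here too 3 of 7 males lay above every female and 1 lay below. Folr1 and Ttr were called higher in NT males by the quasi-likelihood test of edgeR, with p-values adjusted after Benjamini and Hochberg over 12107 genes. The log2 fold change was 5.14 (SE 1.36, adjusted p = 0.0182) for Folr1 and 5.21 (SE 1.69, adjusted p = 0.0383) for Ttr. This made 2 of 6 members, where 15.2% of all genes tested were called in that comparison.

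The other 4 members did not pass in NT. The log2 fold change between NT males and NT females was 1.95 (SE 0.70, adjusted p = 0.0571) for Slc4a5, 1.49 (SE 0.61, adjusted p = 0.0892) for Kl, 1.99 (SE 0.85, adjusted p = 0.102) for Aqp1 and 0.22 (SE 0.37, adjusted p = 0.708) for Clic6. The median over the 6 members was 1.97, beside 0.03 over all genes tested. Kl ranged from 1.94 to 3.00 CPM in NT females and, apart from NT male 4113, from 1.47 to 4.82 CPM in NT males. For Clic6, 4 of the 7 NT males lay below every NT female and 2 lay above.

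The call of Ttr was lost without NT male 4113. With that animal left out, 0 of 5 members were called in NT, while 1510 of 12085 genes still were. The log2 fold change of Ttr was then 0.96 (adjusted p = 0.553), and that of Slc4a5 was 0.52 (adjusted p = 0.477). Kl was at 0.02, Aqp1 at -0.38 and Clic6 at -0.47. Folr1 then failed the filter on low counts and was not tested. With no filter and NT male 4113 left out, an alternative chosen after seeing the data, Folr1 was at 3.03 (SE 1.08, adjusted p = 0.0698 by edgeR) in NT and at 1.72 (SE 0.70, adjusted p = 0.0745 by edgeR) over all animals, and 0 members were called. The exact two-sided permutation test over all 12 NT animals, on the log scale, gave a difference in mean log2(CPM + 0.5) of 1.63 for Ttr (p = 0.402) and of 1.47 for Folr1 (p = 0.205). Limma-voom called 0 members, and so did edgeR with the NT animals alone, in which Folr1 was not tested. DESeq2 called 3, namely Folr1, Slc4a5 and Kl, beside 2477 of all 12107 genes, and gave no adjusted p for Ttr. The call of Ttr was also lost when any 1 of the 5 NT females was left out, and that of Folr1 when NT female 1011 was left out (adjusted p = 0.0503). Folr1 failed the filter, and so had no value in any comparison, when any 1 of 5 animals was left out, NT males 3113, 4113 and 6112, LB male 122 and LB female 5022.

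Between LB males and LB females, 0 of 6 members were called, 0 had an unadjusted p under 0.05, and DESeq2 and limma-voom called 0 as well. In this comparison 0.248% of genes tested were called. Ttr ranged from 6.41 through 15.1 to 241.2 CPM in LB females and from 5.43 through 13.5 to 168 CPM in LB males, so that the groups overlapped almost entirely. Its log2 fold change was -0.65 (SE 1.19). Folr1 ranged from 0 to 1.37 CPM in LB females and from 0 to 1.25 CPM in LB males, with a log2 fold change of 0.39 (SE 1.12). The largest difference was 0.68 (SE 0.76) for Aqp1, with a median of 0.49 CPM in females and 1.11 CPM in males. The median over the members was -0.16, beside 0.01 over all genes.

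Over all animals, males against females, 1 of 6 members was called and 29.3% of genes tested were. This was Folr1, with a log2 fold change of 2.77 (SE 0.87, adjusted p = 0.0200 by edgeR). Ttr had 2.28 (SE 0.97, adjusted p = 0.0737), and Clic6 had -0.06 (SE 0.25, adjusted p = 0.861). Without NT male 4113, Folr1 was not tested and Clic6 was the member called, lower in males by a log2 value of -0.41 (adjusted p = 0.0443 by edgeR). This was 1 of 5 members tested, beside 3182 of 12085 of all genes. Clic6 was called in 1 of the 27 fits that left out 1 animal. With all 27 animals, limma-voom called 0 members between males and females, beside 3110 of 12107 genes.

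Treatment gave no called member in either sex. In NT males Ttr was higher on average than in LB males, at 948 against 32.2 CPM, but no LB male lay above or below the range of the NT males. The log2 fold change of LB against NT males was -4.88 (SE 1.35, unadjusted p = 0.0012, adjusted p = 0.462 by edgeR) for Ttr. It was -3.72 (SE 1.01) for Folr1, -2.05 (SE 0.60) for Slc4a5, -1.90 (SE 0.53) for Kl, -1.82 (SE 0.71) for Aqp1 and -0.54 (SE 0.33) for Clic6. With edgeR 5 of these 6 had an unadjusted p under 0.05, and edgeR, DESeq2 and limma-voom each called 0 members. The share of all genes called was 0%. With NT male 4113 left out, the value of Ttr was -0.62 and that of Kl -0.42, while Clic6 and Aqp1 turned to 0.15 and 0.55. By the exact permutation test, the difference in mean log2(CPM + 0.5) was -1.74 for Ttr (p = 0.263) and -1.04 for Folr1 (p = 0.273).

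In females, LB against NT, 0 of 6 members were called, 0 had an unadjusted p under 0.05, and DESeq2 and limma-voom also called 0. Here 0.00826% of genes were called. The medians of Ttr were 15.1 CPM in LB females and 14.9 CPM in NT females, and LB female 5022 was the only LB female above every NT female. The log2 fold change was 0.98 (SE 1.38) for Ttr and 1.02 (SE 1.41) for Folr1, and that of the other 4 members lay between -0.52 and 0.02. Over all animals, treatment gave 0 called members with edgeR, DESeq2 and limma-voom, with 4 at an unadjusted p under 0.05 in edgeR and 0.00826% of genes called. The interaction of sex and treatment likewise gave 0 with all 3 tools and 4 at an unadjusted p under 0.05, with 0% of genes called. In the interaction Ttr had the largest value, -5.86 (SE 1.98, adjusted p = 1.00 by edgeR), which was -1.61 (SE 1.37) without NT male 4113.

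**Figure D4:**
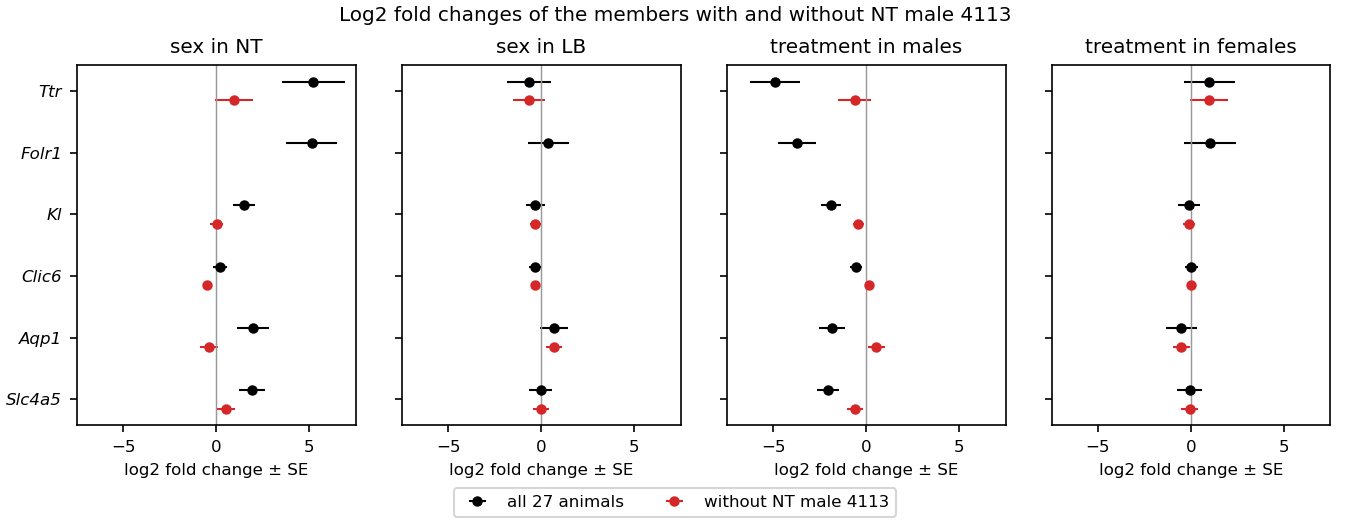
Log2 fold change with its SE (x axis) of the 6 tested members in 4 comparisons, with all 27 animals (black) and without NT male 4113 (red). Where NT males are compared, Ttr, Kl and Slc4a5 move toward 0 without that animal (Ttr from 5.21 to 0.96 in NT and from -4.88 to -0.62 in males), Clic6 and Aqp1 cross 0, and Folr1 has no red point because it then failed the filter.

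Sample titles that agree in all but the last digit make 10 sets of 2 to 4 animals, and the labels do not say what the sets are. NT male 4113 shares its set with NT male 4111, which had 51.3 CPM of Ttr. The set of LB female 5022 ranged from 8.06 to 241.2 CPM and that of NT male 6112 from 1.95 to 98.1 CPM. High and low Ttr thus occurred within the same set. With the set as a random block in limma-voom, 0 members were called in NT and 0 over all animals.

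Of the further choroid plexus genes, 25 of the 27 passed the filter. The 6 with the highest mean level were Enpp2, Igf2, Igfbp2, Cab39l, Slc4a2 and Slc29a4. Enpp2 encodes autotaxin, which makes lysophosphatidic acid, and stood at 1152 CPM in NT male 4113 and 678 CPM in NT male 6112 around a median of 199 CPM in the other 25 animals. The growth factor gene Igf2 stood at 605 CPM in NT male 4113 and Igfbp2, a binding protein of such factors, at 310 CPM, around medians of 183 and 61.1 CPM. The anion exchanger gene Slc4a2 stood at 73.8 CPM around a median of 30.6 CPM. Cab39l and the monoamine transporter gene Slc29a4 were not highest in NT male 4113, where they had 43.4 and 26.5 CPM beside medians of 37.4 and 29.1 CPM.

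In sex in NT, 13 of these 25 genes were called higher in males and 0 lower by edgeR, beside 15.2% of all genes tested. With the title set as a random block in limma-voom 0 of 25 were called, among 2 of all 12107 genes, and limma-voom without the block called 2 of 25, among 1247 genes. Without NT male 4113 there were 3 of 23 (Enpp2, Calml4 and Igf2), beside 1510 of 12085 of all genes. Without NT males 4113 and 6112 there were 2 of 21 (Enpp2 and Igf2), beside 602 of 12041. Without NT male 6112 alone there were 9 of 25, beside 1141 of 12058 of all genes. Over all animals, males were higher in 8 of 25 genes and lower in 1, Ace, beside 29.3% of all genes tested. In LB, 2 of 25 were called, both higher in males: Igf2, with a log2 fold change of 1.48 (SE 0.24, adjusted p = 0.0033 by edgeR), and Igfbp2, with 1.81 (SE 0.33, adjusted p = 0.0074 by edgeR). In LB 0.248% of all genes tested were called, and 4 of 11 tested meningeal genes were also called higher in males. In the treatment comparisons and the interaction 0 of 25 were called. The median log2 fold change over the list was 1.63 in NT and 0.16 in LB, beside 0.03 and 0.01 over all genes. In NT it was 0.56 without NT male 4113 and 0.19 without NT males 4113 and 6112.

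The 8 genes other than members whose log2(CPM + 0.5) over 27 animals was most like the mean of the 6 members, out of 12101, were Cldn2 (r = 0.96), Sostdc1 (r = 0.96), F5 (r = 0.93), Mfrp (r = 0.90), Tmem72 (r = 0.88), Abca4 (r = 0.88), Pla2g5 (r = 0.83) and Trpv4 (r = 0.82). All but Pla2g5 are on the list of further choroid plexus genes, and all 8 were highest in NT male 4113. Cldn2, a tight junction gene, stood at 29.2 CPM there and 1.06 CPM in NT male 6112, with a median of 0.11 CPM in the other 25 animals. Sostdc1, which encodes a secreted inhibitor of BMP signalling, stood at 67.6 CPM there and at 2.58 CPM in NT male 6112, with a median of 0.28 CPM. Without NT male 4113, Cldn2 (r = 0.84) and Sostdc1 (r = 0.83) were still ranks 1 and 2 of 12101, while Trpv4 fell to rank 3022. The members share the libraries and their depth with these genes, so these values are descriptions.

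The mean level of the further choroid plexus genes followed Ttr over the 27 animals with r = 0.78 (permutation p = 0.00017, adjusted p = 0.0027 over 16 lists) and rho = 0.50 (p = 0.0089, adjusted p = 0.142). Without the same 2 animals r was 0.47. It was the only one of 16 marker lists past the threshold. As members and lists were chosen with earlier results of these data known, this relation is a description. The ependymal list had r = 0.56 (adjusted permutation p = 0.106), and 0.29 without the 2 animals. The remaining lists lay between -0.31 for granule cells and 0.36 for myelin.

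Markers of other cells also stood high in the 2 NT males. Ependymal cells line the ventricles and carry motile cilia. The summed level of the 11 ependymal and cilia genes in the table was 118 CPM in NT male 4113 and 189 CPM in NT male 6112, against 25.7 to 61.7 CPM in the other 25 animals. NT male 6112 was highest in 10 of these 11 genes. By group, the summed level ranged from 28 to 32.6 CPM in NT females, 38.7 to 189 CPM in NT males, 25.7 to 48.5 CPM in LB females and 36.7 to 61.7 CPM in LB males. In NT, where edgeR called 15.2% of all genes tested, 7 of the 8 that passed the filter were called higher in males and 0 lower by edgeR. Limma-voom called 2 of 8, and 0 of 8 with the title set as a random block in it, beside 1247 and 2 of all 12107 genes. By edgeR the called ependymal genes were 4 of 7 without NT male 4113, 4 of 6 without NT male 6112 and 2 of 5 without both. In the same order, 1510 of 12085, 1141 of 12058 and 602 of 12041 of all genes were called. NT male 6112 was also highest in all 6 genes of the deep cerebellar nuclei list, with 4057 CPM against 454 to 1712 CPM in the other 25 animals and 931 CPM in NT male 4113. The part of these markers in the members' results was not tested.

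The meningeal list had 1535 CPM in NT male 4113, inside the 466 to 2119 CPM of the other 25 animals. Endothelium, with 462 CPM, and red blood cells, with 295 CPM, also lay inside those ranges in NT male 4113. The lists for cerebrospinal fluid secretion transport, for retinol and thyroid hormone handling and for folate and klotho-FGF genes, which hold genes that work beside the members but are not particular to the choroid plexus, did not stand out. NT male 4113 ranked 18, 23 and 22 of 27 animals by their summed levels. In NT, 4 of 9, 2 of 9 and 1 of 6 of their tested genes were called, beside 15.2% of all genes tested. Among them Car2, a carbonic anhydrase gene, was higher in NT males (log2 fold change 0.92, SE 0.17, adjusted p = 0.0096 by edgeR). Of the other lists, 5 of 6 deep nuclei, 4 of 4 myelin, 2 of 4 forebrain and 1 of 11 meningeal genes were called higher in NT males, and 2 of 4 granule cell and 1 of 4 Purkinje cell genes lower. Without NT males 4113 and 6112 there were 2 of 6 deep nuclei, 1 of 4 myelin, 2 of 4 forebrain, 1 of 11 meningeal, 1 of 4 granule cell and 0 of 4 Purkinje cell genes, beside 602 of 12041 of all genes. With the title set as a random block in limma-voom 0 genes of any list were called in NT. On the endothelial, macrophage, red blood cell and brainstem lists 0 of 7, 0 of 6, 0 of 3 and 0 of 1 were called by edgeR, with 1, 4, 2 and 0 at an unadjusted p under 0.05. On the list of OTX2-related homeobox genes 1 of 5 passed the filter, En2, which was lower in NT males (-0.62, SE 0.16, adjusted p = 0.0160 by edgeR).

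**Figure D5:**
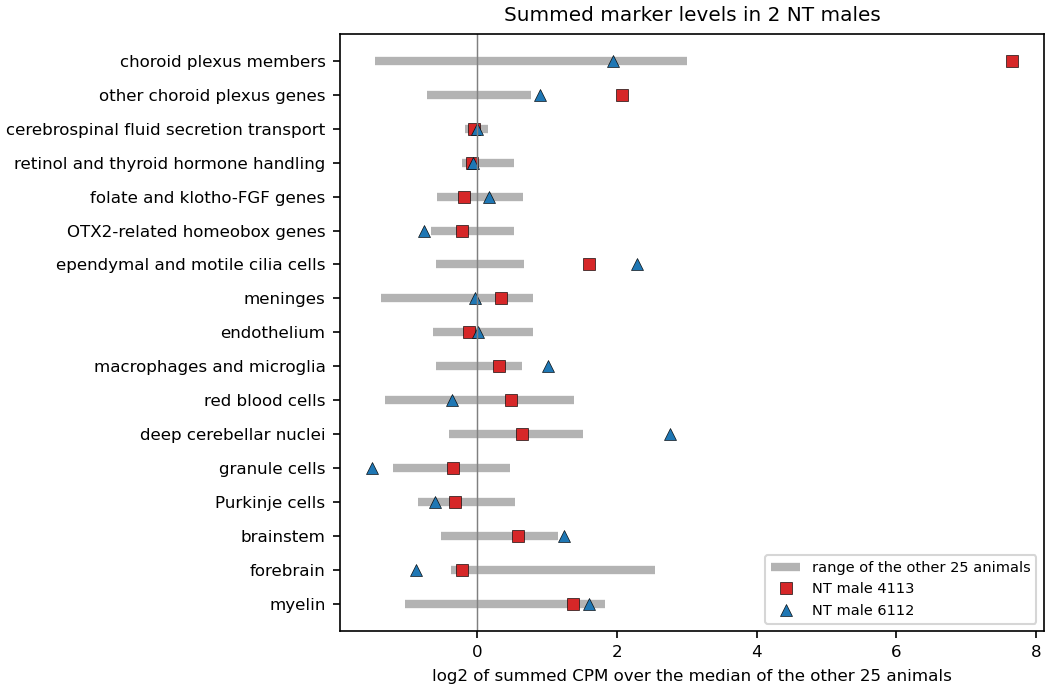
Summed CPM of each marker list in NT male 4113 (red square) and NT male 6112 (blue triangle), as log2 over the median of the other 25 animals, whose range is the grey bar. NT male 4113 lies right of the bar for the members, the further choroid plexus genes and the ependymal genes, and NT male 6112 for the further choroid plexus genes and for the ependymal, deep nuclei, macrophage and brainstem lists.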

How the data were processed

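Messenger RNA of 27 punches was sequenced, 1 library for each rat, on an Illumina HiSeq instrument after a KAPA mRNA HyperPrep library preparation. The authors removed samples of low RNA integrity before deposit. Per the submitters' processing notes, reads were aligned to rn6 with STAR 2.5.2b and counted with featureCounts (Subread 1.5.1), and the authors deposited raw, unnormalized counts for 17321 genes with exon coordinates and lengths. Strand and multi-mapping settings are not given in the sources used here, so that counts of overlapping genes are uncertain. Columns were matched to animals by sample title, and groups came from the sex and treatment labels. Libraries were taken as separate, since 0 of the 80 same-group pairs were identical and the closest pair had a chi-square of 8.48 per degree of freedom over genes.

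All genes were fitted together in R 4.3.3 using edgeR 4.0.16. The filterByExpr filter, at a count of 10 and a total of 15, left 12107 genes. TMM factors, robust dispersions and 1 quasi-likelihood model of the 4 groups with a prior count of 0.125 gave 7 contrasts, with Benjamini-Hochberg adjustment over all genes and a threshold of 0.05. The SE is the log2 fold change over the square root of F. The fit was tested on simulated counts. CPM used TMM-scaled library sizes. Correlations used 100000 permutations, two-sided. Alternatives were DESeq2 1.42.0, limma-voom 3.58.1, other size factors and filters, the title set as a block, single groups, leaving out each animal, leaving out NT male 4113 with no filter, pseudocounts of 0.1 and 2 in place of 0.5 and a floor of 10 counts in place of 3. Precision rests on the total counts per animal, 11836684 to 24169170. Python 3 scripts used scipy for exact intervals and tests.

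The members and all lists were chosen with earlier results of these data known, as were the motifs with the promoter sequences. Named genes were the members, the 6 further choroid plexus genes of highest mean CPM, up to 3 of highest mean CPM from each other list, listed genes past the threshold in a treatment contrast or the interaction, and the 8 genes most like the members. The planned sex label checks were Eif2s3y, Ddx3 and LOC100911498. Genes named beyond this (Calml4, Ace and those in called counts) were chosen after their values were seen.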

Additional observations from a re-analysis of the deposited data

Results flagged for a closer look

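In each group the highest and the lowest animal were compared with the nearest other animal by Dixon's ratio. Chance passes it in about 1 of 20 groups where values are normally distributed. That rate need not hold for CPM as skewed as these, so the ratio is used as a description. Among NT males, animal 4113 stood apart as the highest in all 7 members, at 6339.9 CPM for Ttr, 31.6 CPM for Folr1, 34.6 CPM for Kl, 48.8 CPM for Clic6, 25.8 CPM for Aqp1, 16.8 CPM for Slc4a5 and 0.067 CPM for Otx2. The Otx2 value is 1 count, and the ratio is 1 for any count where all other animals of a group have 0. Among LB females, animal 5022 stood apart for Ttr, at 241.2 CPM, and for Folr1, at 1.37 CPM. Among LB males, animal 122 stood apart for Ttr, at 168 CPM. For Otx2, LB female 5021 at 0.062 CPM and LB male 7121 at 0.133 CPM stood apart in groups in which the other animals had 0 or nearly 0, and these are 1 and 2 counts. No member had such an animal among NT females, and no lowest animal stood apart in any group. The cause was not tested for any of these animals.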

How the results depend on the processing

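Of 972 values recomputed under alternatives, 878 kept their direction and side of the threshold, moved by less than their error or, for counts and ratios, changed little. Many of the 878 are numbers of called members that were 0 and stayed 0, so this total says little of how firm the called results are. In sex in NT, where 2 members were called, 1 was called with 10 counts in every animal required. That filter left 3 members tested, and 1586 of 10786 genes were called under it. In NT 0 members were called with limma-voom, with only the groups compared, with the title set as a random block, and without NT males 4113 and 6112. Leaving out both males was an alternative chosen after seeing the data. With no filter and NT male 4113 left out, also chosen after seeing the data, 0 were called in NT and 0 in males against females over all animals. Under it Clic6 in NT was -0.47 and Aqp1 -0.37, and in LB against NT males 0.14 and 0.53. Leaving out 1 animal gave 0 to 4 called members in NT, and 0 to 3 in males against females over all animals. The 4 came without NT male 4111, beside 2624 of 12101 genes called. The 3 came without NT male 6111, beside 3521 of 12074 genes called. In males against females over all animals, where 1 was called, 0 were called with 10 counts required, with limma-voom and with the block. The number called in LB and in all treatment contrasts was 0 under every alternative run. Directions turned as follows in sex in NT. Clic6 was -0.20 with limma-voom, -0.18 with the block, -0.20 in the permutation test and -0.57 without both NT males. Aqp1 was -0.37 with DESeq2 and -0.42 without both NT males, and Kl was -0.27 without both. In LB against NT males, Aqp1 was 0.52 with DESeq2 and 0.59 without both, and Clic6 was 0.25 without both. With 1 animal left out, in NT Aqp1 ranged from -0.38 to 2.53 and Clic6 from -0.47 to 0.37. In males under treatment Aqp1 ranged from -2.09 to 0.55 and Clic6 from -0.71 to 0.15. Over all animals, the sex difference of Clic6 ranged from -0.41 to 0.011. At a floor of 10 counts Folr1 was carried by 6 animals. The correlations with Ttr kept their side of the threshold under the other pseudocounts and with library size alone. Otx2 and, in most animals, Folr1 had so few counts that single counts decided the level. The cause of these changes was not tested.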
